A study of Mus musculus with 6 samples.

Results

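The oxidative stress and glutathione genes described here are 10 mouse genes, Nfe2l2, Nqo1, Hmox1, Gclc, Gclm, Txnrd1, Srxn1, Gsr, Gsta4 and Selenbp1, out of 27666 gene names on the array. Their probes are all those that the array files name for a member or for an older synonym, which gave 17. The rule uses no measured value, but the 10 genes were picked with earlier results of these data known. All 17 passed the filter on dim probes, which kept a probe if it was well above background on both arrays of at least 1 group, and all 10 genes were among the 19370 genes tested.

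The study hybridised total RNA of J1, a mouse embryonic stem cell line, to 6 one-colour (Cy3) Agilent arrays. The cells had received siRNA against Thoc2 (2 arrays), siRNA against Thoc5 (2 arrays) or a non-targeting control siRNA, called NT (2 arrays), and RNA was collected 96 hours after transfection. All groups shared the cell line, ESGRO medium for upkeep and M10 medium during transfection, and the siRNA lowers but does not delete its target. Thoc2 and Thoc5 are subunits of THO, a complex that couples transcription to the export of mRNA from the nucleus, and total RNA holds nuclear and cytoplasmic transcripts together.

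Nfe2l2 encodes Nrf2, a transcription factor that Keap1 marks for degradation in unstressed cells and that accumulates when oxidants or electrophiles modify Keap1. With small Maf proteins Nrf2 binds antioxidant response elements near genes that make and recycle glutathione, reduce thioredoxin and peroxiredoxins, and detoxify quinones and heme. Transcripts of these genes are therefore commonly read as a measure of Nrf2 activity.

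The core of the antioxidant response element, TGACNNNGC, was searched on both strands in RefSeq promoter windows of build GRCm38.p6, each running from 250 bases before to 50 bases after a gene's start; no other motif was searched. Of the 10 members, 6 matched this table, and the motif was in a window of 4 of them. Counted by window and not by gene, 12.4% of all 32851 windows held it. Txnrd1 had 3 windows, so the count of genes and the share of windows are not like measures. The matches are shown because Nrf2 is known to act through this element, each written along the gene's strand with the motif in capitals (GCNNNGTCA where it lies on the opposite strand).
Nfe2l2: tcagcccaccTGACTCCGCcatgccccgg
Gclm: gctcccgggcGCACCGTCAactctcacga
Txnrd1: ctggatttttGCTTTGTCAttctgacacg
Srxn1: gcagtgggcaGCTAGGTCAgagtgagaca
The Nfe2l2 stretch lies at chr2:75704885-75704913 on the minus strand, with the motif beginning 240 bases before the start. The Gclm stretch (chr3:122245413-122245441, plus strand) has its motif 134 bases before the start, and the Txnrd1 stretch (chr10:82859104-82859132, plus strand), from 1 of 3 Txnrd1 windows, has it 92 bases before. The Srxn1 stretch (chr2:152105542-152105570, plus strand) lies inside the transcript, with its motif beginning at base 29. The windows of Nqo1 and Selenbp1 did not hold these letters. A match is a description of the letters and not evidence of binding.

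Across the arrays, between 56.7% and 79.7% of spots were well above background and the 75th percentile of the processed signal ran from 306 to 905, with the lowest value on Thoc5 replicate 1. Thoc2 replicate 1 had 880 spots with an outlier flag and the other arrays 63 to 155, and it was the only array scanned on another day. NT replicate 1 and Thoc2 replicate 2 shared a slide, as did NT replicate 2 and Thoc5 replicate 2. Thoc2 signal was 55.0% of NT with Thoc2 siRNA (limma adjusted p = 0.304) and Thoc5 signal was 41.4% of NT with Thoc5 siRNA (limma adjusted p = 0.130), and neither passed the threshold. Of 10 embryonic stem cell markers, 9 were measured, all well above background on every array. Nothing in the labels says that arrays of a group came from separate cultures, so the p-values measure only the spread between these arrays.

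All levels below are log2 of the processed signal over the 75th percentile of the same array, and differences are log2 differences of group means from limma fitted over all genes, with the SE, n = 2 arrays per group, and p-values adjusted by Benjamini-Hochberg over all genes tested. A probe's brightness also depends on its sequence, so levels of different genes are not ranked, and the brightest probe of a gene is named only because it stood for the gene in the fit.

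Selenbp1, which encodes a selenium-binding protein whose human form oxidises methanethiol, had the largest difference from NT of the 10 members under either siRNA. Its level was -0.19 and -0.78 on the NT arrays, -2.00 and -1.91 on the Thoc2 siRNA arrays, and -2.75 and -2.89 on the Thoc5 siRNA arrays. The 3 groups did not overlap: both Thoc5 siRNA arrays were lowest, both Thoc2 siRNA arrays were between, and both NT arrays were highest. In RNA of whole cultures, fewer cells with a transcript and less of it per cell cannot be told apart. Against NT the difference was -1.47 ± 0.24 with Thoc2 siRNA, which is 36.2% of the NT level (95% interval -2.12 to -0.82, limma adjusted p = 0.218). With Thoc5 siRNA it was -2.33 ± 0.24, or 19.9% of the NT level (95% interval -2.98 to -1.68, limma adjusted p = 0.101). Between the siRNAs, the Thoc5 siRNA arrays differed from the Thoc2 siRNA arrays by -0.86 ± 0.24 (limma adjusted p = 0.497).

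Neither Selenbp1 difference passed the adjusted threshold of 0.05, although the unadjusted limma p-values were 0.0026 and 0.000375. The Thoc5 siRNA difference passed it under the filter for probes well above background on all 6 arrays (limma adjusted p = 0.0372) and under an intensity trend with robust variances (limma adjusted p = 0.0225). In that comparison these settings called 509 of 15223 and 660 of 19370 genes. With normexp background correction the differences were smaller, -0.65 with Thoc2 siRNA and -1.12 with Thoc5 siRNA. Within the shared slides, which give 1 array of each group and no test, Selenbp1 differed from NT by -1.72 with Thoc2 siRNA and by -2.11 with Thoc5 siRNA. Small differences of other members turned sign there, namely Nfe2l2 (-0.058) and Hmox1 (-0.065) with Thoc2 siRNA, and Gclc (0.17) and Gclm (0.16) with Thoc5 siRNA.

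The probe named for Selenbp1, A_52_P629487 (mm7 chr3:94818647-94818706), lists accessions of both Selenbp1 and its paralog Selenbp2, so the array cannot tell their transcripts apart at this spot. The probe named for Selenbp2, A_51_P431018 (mm7 chr3:94578289-94578348), overlaps it over 54 bases of which 51 are identical. The last 30 bases of that overlap are printed because they show how few bases separate the probes, with the differing bases in capitals.
Selenbp1 probe: ctcctggaagcaccAAgaaataaaatgctg
Selenbp2 probe: ctcctggaagcaccTGgaaataaaatgctg
Counted from 1 at the 5′ end of this stretch, with the Selenbp1 probe's base first, the differences are A15T and A16G. The Selenbp2 probe gave levels of -0.75 and -1.21 with NT, -2.46 and -2.28 with Thoc2 siRNA, then -3.26 and -2.999 with Thoc5 siRNA. These groups were in the same order as at the Selenbp1 probe, again with no overlap. The Selenbp2 differences from NT were -1.39 ± 0.23 (limma adjusted p = 0.218) and -2.15 ± 0.23 (limma adjusted p = 0.101).

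By Pearson correlation over the 6 arrays, the genes most like Selenbp1 were Prkcd (r = 0.999), Cbfa2t2 (r = 0.999) and Ndufv3 (r = 0.998). With only 6 arrays, 985 of the 19025 genes compared had r above 0.9, and how many came near 0.998 was not counted.

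Markers of cell types moved between the groups as well, and their part in the Selenbp1 result was not tested. Of the 9 embryonic stem cell markers, 5 (Pou5f1, Sox2, Esrrb, Utf1 and Zfp42) were below both NT arrays on all 4 knockdown arrays and none was above, where 16.3% of 19026 genes were below and 14.3% above. Pou5f1, a core pluripotency factor, read 4.56 and 4.18 with NT, 4.12 and 3.78 with Thoc2 siRNA, then 3.43 and 3.56 with Thoc5 siRNA, the same order of groups without overlap as Selenbp1, which 6.19% of all genes had. The summed signal of the stem cell markers, over the 75th percentile, was 1006 and 1061 with NT, 828 and 860 with Thoc2 siRNA, then 1007 and 801 with Thoc5 siRNA. Dppa5a made up most of this sum on every array. It read 9.21 and 9.35 with NT, 8.98 and 8.996 with Thoc2 siRNA, then 9.40 and 9.03 with Thoc5 siRNA. Of 10 fibroblast and feeder markers, 3 (Col1a1, Thy1 and Pdgfrb) were below NT on all knockdown arrays and 1 (Fbn1) above. Thy1 read 0.64 and 0.03 with NT, -1.35 and -1.11 with Thoc2 siRNA, then -1.22 and -2.12 with Thoc5 siRNA, so its knockdown groups overlapped. Pdgfrb had the order of Selenbp1 without overlap, at -1.27 and -1.26, then -1.33 and -1.40, then -1.90 and -1.58. The summed signal of this list ran from 11.6 to 15.0 with NT and from 12.5 to 14.6 on the knockdown arrays. Acta2 made up most of it on every array, at 3.64 and 3.26 with NT and 3.44 to 3.74 on the knockdown arrays. The sum therefore says little of the dimmer markers of this list. Of 10 primitive endoderm markers none was on one side of NT on all knockdown arrays, no array had Ttr well above background, and the summed signal was 13.8 and 1.51 with NT, 3.48 and 4.34 with Thoc2 siRNA, then 15.0 and 3.97 with Thoc5 siRNA. Of 10 trophoblast markers none was below and 3 (Eomes, Gcm1 and Hand1) were above NT on all knockdown arrays, with sums between 0.738 and 1.47. Gcm1 was not well above background on either NT array or on Thoc2 replicate 2, and Hand1 was not on NT replicate 1. For these genes the order of dim arrays is therefore uncertain.

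**Figure D1:**
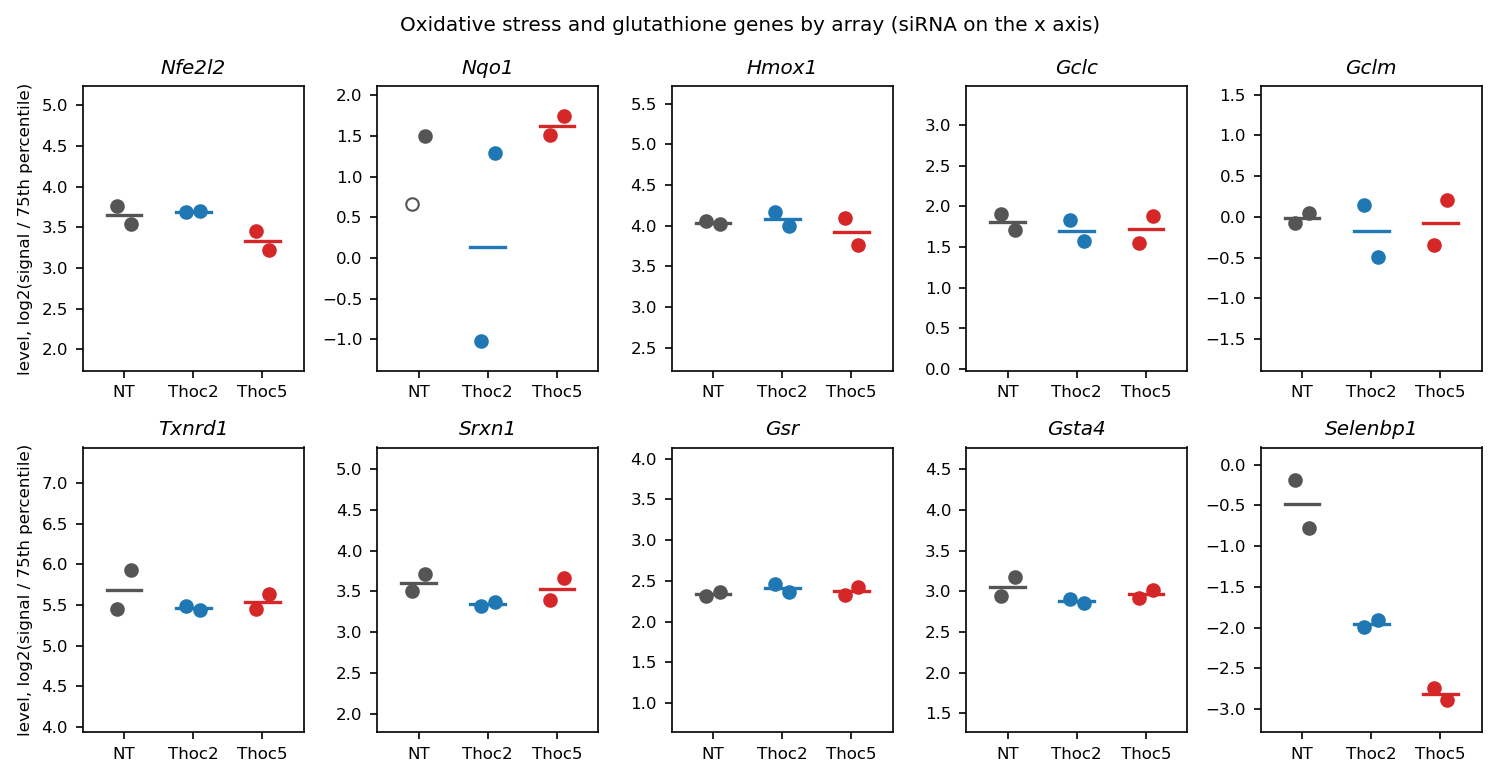
Level of each gene on each array, as log2 of the processed signal over the array's 75th percentile, with 1 point per array, replicate 1 at the left, and a line at the mean of 2 arrays. Every panel spans the same log2 range. Selenbp1 falls into 3 separate groups (-0.19 and -0.78, -2.00 and -1.91, -2.75 and -2.89), and the open Nqo1 point is the NT replicate 1 spot that carried an outlier flag (0.67) and was left out of the fit.

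The transcription factor itself gave different differences at its 4 probes. At the brightest Nfe2l2 probe, A_51_P411271 (mm7 chr2:75519430-75519489), the level was 3.76 and 3.54 with NT, 3.69 and 3.70 with Thoc2 siRNA, then 3.45 and 3.21 with Thoc5 siRNA. The Thoc2 siRNA arrays lay within the NT range and both Thoc5 siRNA arrays lay below it. The differences from NT were 0.05 ± 0.17 with Thoc2 siRNA (limma adjusted p = 0.913) and -0.31 ± 0.17 with Thoc5 siRNA (limma adjusted p = 0.394).

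The next probe, A_52_P396436 (mm7 chr2:75519576-75519635), read 3.11 and 3.24 with NT, 2.92 and 2.83 with Thoc2 siRNA, then 2.62 and 2.59 with Thoc5 siRNA. Here all 4 knockdown arrays were below both NT arrays, with the Thoc5 siRNA arrays lowest. In the fit of every probe on its own, this probe differed from NT by -0.30 ± 0.15 with Thoc2 siRNA (limma adjusted p = 0.416) and by -0.57 ± 0.15 with Thoc5 siRNA (limma adjusted p = 0.158). The other Nfe2l2 probes, A_52_P1107697 and A_52_P523835, lie 24980 and 16176 bases from the first, list no accession of the RefSeq table and were dim, with levels of -2.24 to -1.59 and of -5.46 to -4.35. A_52_P523835 was not well above background on Thoc2 replicate 2 and Thoc5 replicate 1, and its Thoc5 siRNA difference ran the other way, 0.65 ± 0.29 (limma adjusted p = 0.307).

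Glutathione is made in a first, rate-limiting step by glutamate-cysteine ligase, whose catalytic subunit is Gclc and whose modifier subunit is Gclm. Gclc read 1.90 and 1.71 with NT, 1.83 and 1.57 with Thoc2 siRNA, then 1.56 and 1.88 with Thoc5 siRNA. Gclm read -0.08 and 0.04 with NT, 0.14 and -0.49 with Thoc2 siRNA, then -0.34 and 0.21 with Thoc5 siRNA. For both subunits the 3 groups overlapped, and the 2 Gclm arrays of each knockdown lay on either side of the NT arrays. The Gclc differences from NT were -0.11 ± 0.20 with Thoc2 siRNA and -0.09 ± 0.20 with Thoc5 siRNA (limma adjusted p = 0.824 and 0.852). Those of Gclm were -0.16 ± 0.31 and -0.05 ± 0.31 (limma adjusted p = 0.833 and 0.947), with 95% intervals of -0.99 to 0.67 and -0.88 to 0.78 that leave room for changes of either sign.

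Among the brightest probes of these genes, that of Gsr, the NADPH-dependent reductase that recycles oxidised glutathione, varied least over the arrays. This probe, A_52_P346738, read 2.31 and 2.37 with NT, 2.47 and 2.37 with Thoc2 siRNA, then 2.32 and 2.43 with Thoc5 siRNA. The whole range was 0.16, and the differences from NT were 0.08 ± 0.14 and 0.03 ± 0.14 (limma adjusted p = 0.811 and 0.919). A second probe, A_51_P359625, gave 0.01 ± 0.21 and 0.05 ± 0.21, and the third, A_52_P91604, gave -0.32 ± 0.35 with either siRNA. The sign depended on the probe, and the 95% interval of every Gsr difference from NT included 0.

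Gsta4 encodes a glutathione transferase that conjugates aldehydes from lipid peroxidation, and its probe is printed in 10 spots, which were averaged. It read 2.94 and 3.17 with NT, 2.91 and 2.86 with Thoc2 siRNA, then 2.92 and 3.02 with Thoc5 siRNA. Both Thoc2 siRNA arrays were just below the NT arrays and the Thoc5 siRNA arrays overlapped them. The differences from NT were -0.17 ± 0.16 and -0.09 ± 0.16 (limma adjusted p = 0.639 and 0.798).

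Txnrd1 encodes cytosolic thioredoxin reductase, a selenoprotein that keeps thioredoxin reduced. It read 5.45 and 5.93 with NT, 5.49 and 5.44 with Thoc2 siRNA, then 5.45 and 5.64 with Thoc5 siRNA. NT replicate 2 was the highest and the other 5 arrays lay between 5.44 and 5.64. The differences from NT were -0.23 ± 0.22 and -0.15 ± 0.22 (limma adjusted p = 0.658 and 0.762).

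Srxn1, sulfiredoxin, which restores hyperoxidised peroxiredoxins, gave opposite differences at its probes. The brightest, A_52_P297032 (mm7 chr2:151852040-151852099), read 3.50 and 3.71 with NT, 3.33 and 3.37 with Thoc2 siRNA, then 3.39 and 3.66 with Thoc5 siRNA. Both Thoc2 siRNA arrays were below NT and the Thoc5 siRNA arrays overlapped NT, with differences of -0.26 ± 0.17 and -0.08 ± 0.17 (limma adjusted p = 0.534 and 0.840). Probe A_51_P330125 (mm7 chr2:151850353-151850412), which starts 1687 bases before it, read -0.11 and 0.09 with NT, 0.44 and 0.38 with Thoc2 siRNA, then 0.55 and 0.58 with Thoc5 siRNA. Here all 4 knockdown arrays were above both NT arrays. The differences, each probe fitted on its own, were 0.42 ± 0.15 with Thoc2 siRNA (limma adjusted p = 0.326) and 0.57 ± 0.15 with Thoc5 siRNA (limma adjusted p = 0.166). Probe A_52_P593200, which overlaps the previous one over 13 bases, differed from NT by 0.34 ± 0.20 and 0.47 ± 0.20 (limma adjusted p = 0.479 and 0.300).

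The log2 ratio of A_52_P297032 to A_51_P330125 within an array was lower on every knockdown array than on either NT array, by 0.66 on average. Among the 8904 pairs of a gene's brightest probe with another probe of that gene, the 4 knockdown arrays did not overlap the NT arrays in 27.5%, and 13% did so with a shift at least as large. Pairs that part in this way were therefore common on these arrays, and the cause was not tested.

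**Figure D2:**
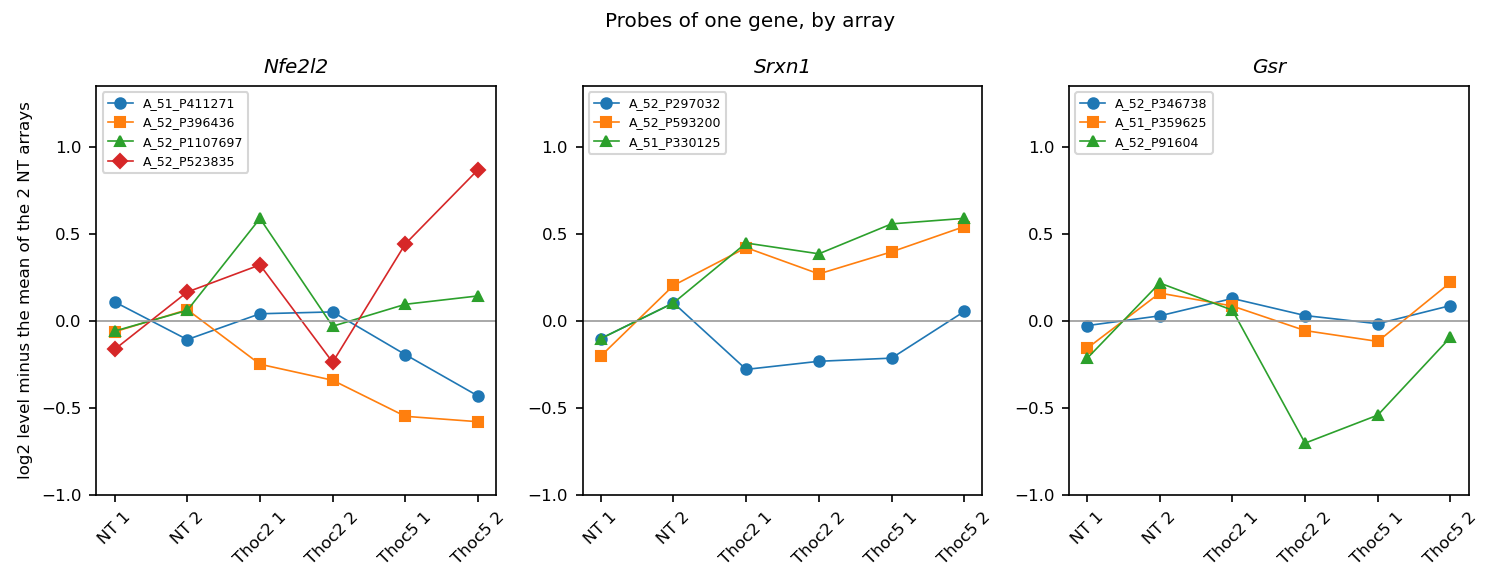
Level of each probe of Nfe2l2, Srxn1 and Gsr on the 6 arrays, as the log2 difference from that probe's mean on the 2 NT arrays, with 1 marker per probe and lines only to guide the eye. At Srxn1, probes A_52_P593200 and A_51_P330125 are above the NT mean on all 4 knockdown arrays, and A_52_P297032 is below it on 3 of them.

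Nqo1, a quinone reductase widely used as an Nrf2 reporter gene, could not be judged well. It read 1.495 on NT replicate 2, -1.02 and 1.29 with Thoc2 siRNA, then 1.51 and 1.74 with Thoc5 siRNA, and its spot on NT replicate 1 was flagged as nonuniform and left out of the fit. Thoc2 replicate 1 stood apart from every other array. It is also the array with 880 flagged spots, but its Nqo1 spot carried no outlier flag and was well above background. The cause of the low value was not tested. The difference from NT was -1.36 ± 1.09 with Thoc2 siRNA and 0.13 ± 1.09 with Thoc5 siRNA (limma adjusted p = 0.611 and 0.966), each against 1 NT array. Without Thoc2 replicate 1 the Thoc2 siRNA difference was -0.20, and with the flagged spot kept, at a level of 0.67, the differences were -0.95 and 0.54.

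Hmox1, the inducible heme oxygenase, read 4.06 and 4.02 with NT, 4.17 and 3.996 with Thoc2 siRNA, then 4.09 and 3.76 with Thoc5 siRNA. The groups overlapped in both comparisons with NT. The differences were 0.04 ± 0.18 and -0.11 ± 0.18 (limma adjusted p = 0.922 and 0.781).

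Taking the genes as a list, 0 of 10 passed the adjusted threshold with Thoc2 siRNA, against 0% of the 19369 genes tested (smallest adjusted p 0.207), and 1 of 10 (Selenbp1) had an unadjusted limma p under 0.05, against 14.5% of all genes. With Thoc2 siRNA 7 members were below NT and 3 above, where 44.2% of all genes were below, 3 (Srxn1, Gsta4 and Selenbp1) were lower without overlap against 20.5% of all genes, and 1 (Gsr) was higher without overlap against 25.7%. The median difference of the members was -0.16 and that of all genes 0.06.

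With Thoc5 siRNA 0 of 10 passed, against 0% of the 19370 genes tested (smallest adjusted p 0.101), and 1 of 10 (Selenbp1) had an unadjusted limma p under 0.05, against 19.4% of all genes. Here 8 members were below NT and 2 above, where 56.8% of all genes were below, 2 (Nfe2l2 and Selenbp1) were lower without overlap against 31% of all genes, and none was higher without overlap against 21.7%. The members' median was -0.09, as was that of all genes. Leaving out Selenbp1 and Nqo1, the brightest probes of the other 8 members read between 83.7% and 106% of NT with Thoc2 siRNA and between 80.5% and 102% with Thoc5 siRNA. Other probes of Nfe2l2, Srxn1 and Gsr fell outside these ranges. Srxn1 probe A_51_P330125 was 1.33 and 1.49 times NT, and Nfe2l2 probe A_52_P396436 was 0.68 times NT with Thoc5 siRNA. The precision at the brightest probes differed between the 8 members, from an SE of 0.14 (Gsr) to one of 0.31 (Gclm).

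Between the siRNAs, 0 of 10 members passed, against 0% of 19369 genes (smallest adjusted p 0.403), and 1 (Selenbp1) had an unadjusted limma p under 0.05, against 9.17% of all genes and 6.99% that were lower. Thoc5 siRNA arrays were lower without overlap for Nfe2l2 and Selenbp1, against 32.1% of all genes, and higher without overlap for Nqo1, Srxn1 and Gsta4, against 13%. The largest of these, Nqo1, differed by 1.49 ± 0.89 (limma adjusted p = 0.656) and went from 0.33 without Thoc2 replicate 1 to 2.64 without Thoc2 replicate 2. The Nfe2l2 difference was -0.36 ± 0.17 (limma adjusted p = 0.594) and the Srxn1 difference 0.18 ± 0.17 (limma adjusted p = 0.752). The comparisons with NT share the NT arrays, and all 3 comparisons share a spread per gene.

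**Figure D3:**
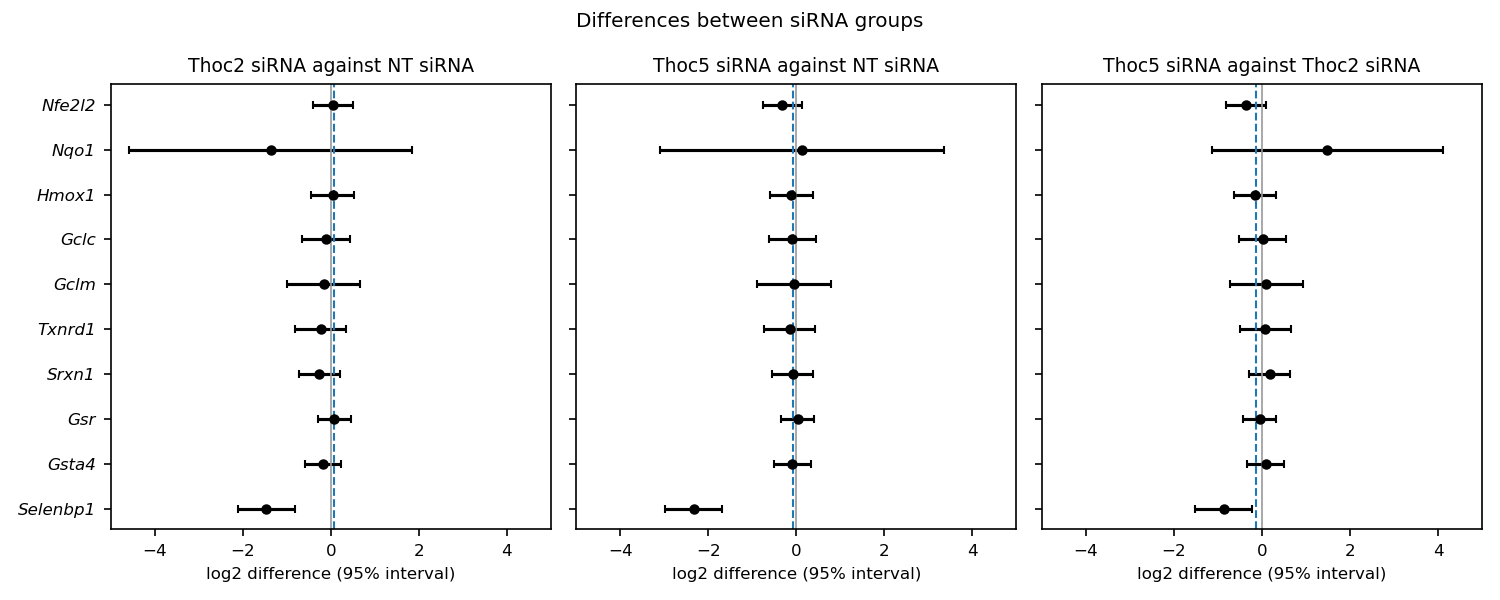
Log2 difference of each gene between siRNA groups, with its 95% interval from limma, the grey line at 0 and the dashed line at the median of all genes. Selenbp1 is the only member whose interval lies wholly below 0, at -1.47, -2.33 and -0.86, and the intervals of Nqo1 are the widest.

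The wider pathway was read from 7 lists without the members, of which 138 of 147 genes were measured. The lists hold Selenbp2, which counts below as a lower gene in both comparisons with NT. Its signal cannot be separated from that of the member Selenbp1, so it adds no independent gene. None of the 138 passed the adjusted threshold in any comparison. At an unadjusted limma p under 0.05, 21 (15.2%) were lower and 4 (2.9%) higher with Thoc2 siRNA, where 6.46% of all genes were lower and 8.06% higher. With Thoc5 siRNA 25 (18.1%) were lower and 1 (0.725%) higher, where 12% of all genes were lower and 7.39% higher. The 1 higher gene was Aox1, which was also 1 of the 4 with Thoc2 siRNA. Aox1 passed the filter on dim probes through the knockdown groups, where it is high, so it cannot be set fairly against the shares of all genes. Between the siRNAs 5 were lower and 4 higher with Thoc5 siRNA, where 6.99% and 2.18% of all genes were. The counts of single lists below are to be read against the same shares of all genes, and no test of a list is given.

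Of 19 genes of glutathione synthesis, supply and turnover, 5 were lower and 1 higher at an unadjusted p under 0.05 with Thoc2 siRNA, then 7 lower and none higher with Thoc5 siRNA, with medians of -0.32 and -0.24. Cth, which makes cysteine by transsulfuration, read 3.45 and 3.22 with NT, 3.02 and 2.89 with Thoc2 siRNA, then 2.07 and 2.04 with Thoc5 siRNA, the last being 41.3% of NT (-1.28 ± 0.16, limma adjusted p = 0.101). Abcc1, an exporter of glutathione and its conjugates, read 1.20 and 1.21, then 0.25 and 0.20, then 0.09 and 0.17 in the same order of groups, with differences of -0.98 ± 0.13 and -1.08 ± 0.13 (limma adjusted p = 0.207 and 0.101). Slc6a9, a glycine transporter, differed by -1.02 ± 0.16 and -1.15 ± 0.16 (limma adjusted p = 0.218 and 0.101). For Abcc1 and Slc6a9 the knockdown arrays were all below the NT arrays and the 2 siRNAs gave similar levels. Ggt5, a gamma-glutamyl transferase, was 41.2% of NT with Thoc2 siRNA (limma adjusted p = 0.218).

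Of 21 glutathione transferases, 3 were lower and none higher with Thoc2 siRNA at an unadjusted p under 0.05, and 6 lower and none higher with Thoc5 siRNA, with medians of -0.20 and -0.40. Mgst1, a membrane-bound transferase, read -0.76 and -1.75 with NT, -3.12 and -2.50 with Thoc2 siRNA, then -3.38 and -3.31 with Thoc5 siRNA (-1.56 ± 0.41 and -2.09 ± 0.41, limma adjusted p = 0.253 and 0.122). Gstm2 differed by -0.70 ± 0.22 and -1.68 ± 0.22 (limma adjusted p = 0.285 and 0.101), and Gstm3 by -0.92 ± 0.27 with either siRNA (limma adjusted p = 0.275 and 0.185). The mu-class genes have close paralogs, so their probes may share signal.

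Among 15 peroxidases and glutaredoxins, 3 were lower and none higher in each comparison with NT, with medians of -0.33 and -0.31. Gpx7, a peroxidase of the endoplasmic reticulum, was 44.3% of NT with Thoc2 siRNA and 40.9% with Thoc5 siRNA (limma adjusted p = 0.274 and 0.161). Gpx8 was 55.6% of NT with Thoc2 siRNA, Glrx 58.0% with Thoc5 siRNA, and Glrx5 72.3% and 65.5% (limma adjusted p = 0.234, 0.140, 0.326 and 0.167). The 16 genes of selenoproteins and selenium handling had 4 lower with Thoc2 siRNA and 3 lower with Thoc5 siRNA, with none higher and medians of -0.24 and -0.28. Sephs1 was 44.3% and 55.3% of NT, Selenoo 47.5% and 63.6%, and Eefsec, the elongation factor for selenocysteine, 65.2% and 71.5% (limma adjusted p from 0.192 to 0.236).

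The 23 genes of the thioredoxin system had medians of -0.06 and -0.05, with 1 lower and 2 higher with Thoc2 siRNA and 2 lower and none higher with Thoc5 siRNA. Prdx6 was 73.1% and 70.9% of NT and Msra 68.5% with Thoc5 siRNA, while Sesn3 was 194% and Txn2 154% of NT with Thoc2 siRNA and Nxn 130% with Thoc5 siRNA (limma adjusted p from 0.201 to 0.324). The 16 Nrf2 regulators had medians of 0.08 and -0.07. In the comparisons with NT only Maff, a small Maf partner of Nrf2, had an unadjusted p under 0.05, with Thoc2 siRNA, at 48.2% of NT (limma adjusted p = 0.234). Bach2 (132%) and Gsk3b (129%) with Thoc2 siRNA, then Gsk3b (154%), Pgam5 (144%) and Nfe2l3 (41.7%) with Thoc5 siRNA, had limma adjusted p-values from 0.266 to 0.520.

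The 28 genes of NADPH supply and other Nrf2 targets had medians of -0.04 and -0.10, with 4 lower and 1 higher in each comparison with NT. Selenbp2, given above with the Selenbp1 probe, was 1 of the 4 lower genes each time. The higher one was Aox1, an aldehyde oxidase, which read -5.88 and -5.65 with NT, -3.43 and -3.62 with Thoc2 siRNA, then -3.47 and -3.37 with Thoc5 siRNA. Its probe was well above background on only 1 of the 2 NT arrays, so it passed the filter through the knockdown groups, where it is high. Its differences of 2.24 and 2.35 are given as values without a test, and its p-value, which entered the counts of higher genes, is not read as one. Idh2, which makes mitochondrial NADPH, was 55.9% of NT with Thoc5 siRNA (limma adjusted p = 0.109), and Ephx1, an epoxide hydrolase, was 55.4% of NT with Thoc2 siRNA (limma adjusted p = 0.222).

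**Figure D4:**
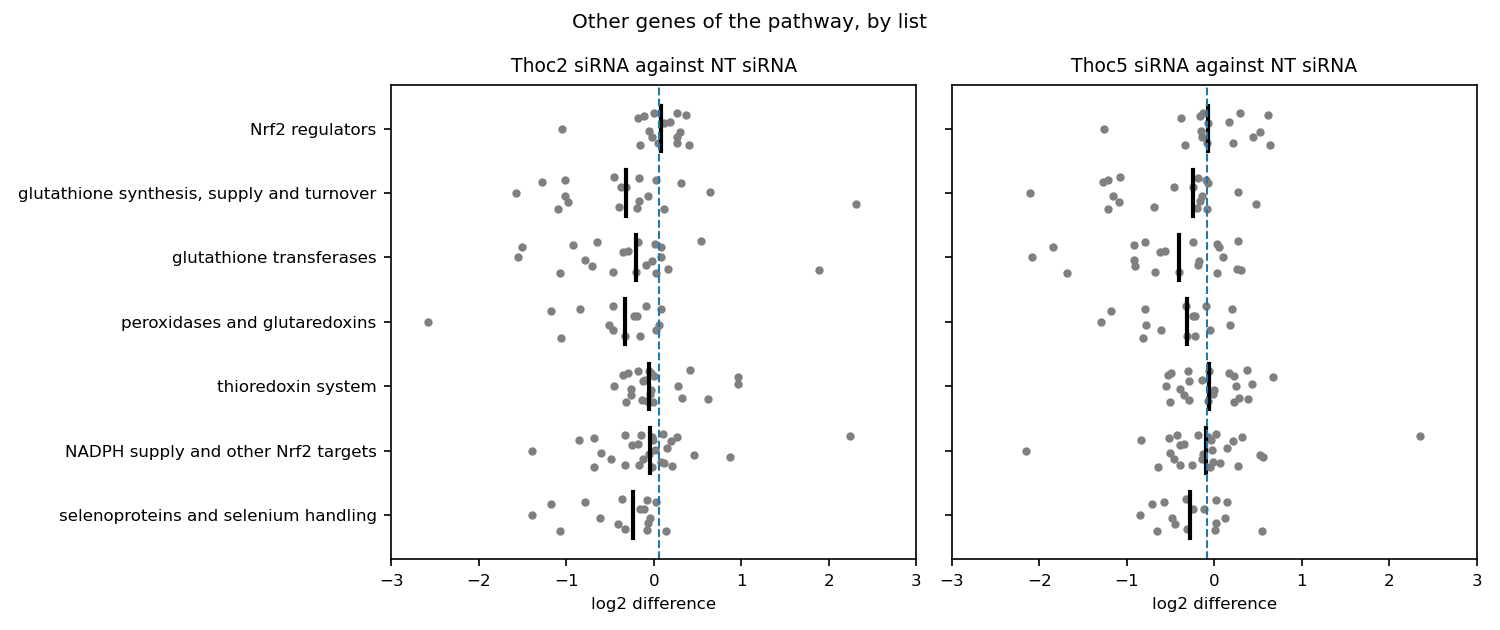
Log2 difference from NT of each measured gene of the 7 pathway lists, with 1 point per gene, a black bar at the list's median and the dashed line at the median of all genes. The medians of the glutathione transferases are -0.20 and -0.40, those of the thioredoxin system are -0.06 and -0.05, and the point far to the right among the other Nrf2 targets is Aox1 (2.24 and 2.35), which was well above background on only 1 of the 2 NT arrays.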

How the data were processed

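Total RNA of J1 cells was measured on 6 one-colour Agilent arrays. The deposited scanner files give, per the file headers, a background-subtracted processed signal intensity for every spot. Feature Extraction is version 9.5.3.1 per the file headers and 11.0 per the submitters' processing notes. The deposited table of the whole series holds log2 values with the same median, 5.82, on every array and in the same order of probes as the processed signal. Its columns are described as quantile normalized by the authors, without further detail in the sources used here. The deposited table served as an alternative.

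The level is log2 of the processed signal minus the array's 75th percentile. Control and outlier-flagged spots were dropped and replicate spots averaged. A probe counted as well above background on an array where at least 0.5 of its spots were. The brightest kept probe stood for its gene, and 344 of the 19370 genes lacked an array. Of the 41174 probes 22951 were named through their accession. Probe coordinates are those of the files' design build, mm7, and promoters those of GRCm38.p6. Sequences credited to RefSeq came from a promoter table.

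limma 3.58.1 in R 4.3.3 (lmFit and eBayes, two-sided) was fitted to all 6 arrays with 3 residual and 1.49 prior degrees of freedom, and was tested on simulated data. Figures were drawn with matplotlib 3.10.9 in Python 3.11.15. With 2 arrays against 2, the smallest p of an exact permutation test is 0.333, and the number of arrays limits the precision. The genes named outside the 10 members are, per list, the 3 with the smallest p in each comparison with NT. The members, lists and tests were chosen with earlier results of these data known.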

Additional observations from a re-analysis of the deposited data

How the results depend on the processing

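The alternatives were normexp, quantile and cyclic loess processing, the deposited series table, 2 filters, a variance trend, slide and replicate terms, other probe rules, fits of only 4 arrays and leaving out each array. Keeping flagged spots and crossing the replicate numbers were added after seeing the data. The count of genes called was 0 in every comparison except for Thoc5 siRNA against NT with probes well above background on all 6 arrays (509) and with an intensity trend and robust variances (660), and Thoc2 siRNA against NT with that trend (4). Selenbp1 kept its direction under all of them, from -1.76 to -0.65 with Thoc2 siRNA, from -2.63 to -1.12 with Thoc5 siRNA and from -0.94 to -0.47 between the siRNAs, with adjusted p from 0.101 up, from 0.0225 up and from 0.320 up.

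Signs turned among the small differences, and the cause was not tested. Normexp moved the median of all genes with Thoc2 siRNA from 0.06 to 0.29 and with Thoc5 siRNA from -0.09 to 0.25. It turned Nfe2l2 (-0.13), Hmox1 (-0.014) and Gsr (-0.24) with Thoc2 siRNA, Gsr (-0.13) with Thoc5 siRNA, and Gclm (-0.014), Txnrd1 (-0.077) and Gsr (0.11) between the siRNAs. Quantile normalization turned Hmox1 (0.00030) and Srxn1 (0.0042) with Thoc5 siRNA. The mean of all probes, which brings in the probes that differ, turned Srxn1 (0.17 and 0.32) and Gsr (-0.076 and -0.078) against NT. Leaving out 1 array gave, with Thoc2 siRNA, -0.063 to 0.15 for Nfe2l2, -0.045 to 0.13 for Hmox1, -0.24 to 0.025 for Gclc, -0.47 to 0.16 for Gclm and -0.47 to 0.015 for Txnrd1. With Thoc5 siRNA it gave -0.28 to 0.051 for Hmox1, -0.25 to 0.077 for Gclc, -0.33 to 0.22 for Gclm, -0.39 to 0.093 for Txnrd1, -0.22 to 0.053 for Srxn1, -0.017 to 0.087 for Gsr and -0.20 to 0.025 for Gsta4. Between the siRNAs it gave -0.32 to 0.0077 for Hmox1, -0.15 to 0.18 for Gclc, -0.21 to 0.42 for Gclm, -0.017 to 0.17 for Txnrd1 and -0.096 to 0.0082 for Gsr. Within the shared slides Nfe2l2 (-0.058) and Hmox1 (-0.065) turned with Thoc2 siRNA, and Gclc (0.17) and Gclm (0.16) with Thoc5 siRNA. None of these was called. A group left with 1 array was assumed to vary like the others, and Nqo1 against NT had no value without NT replicate 2 or within the slide shared by NT replicate 1 and Thoc2 replicate 2.

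Same-numbered arrays share only a number. Their deviations from the group means correlated at -0.20 (NT and Thoc2), 0.14 (NT and Thoc5) and 0.22, and with the replicate block 0 genes were called in each comparison, with Selenbp1 at adjusted p = 0.294, 0.225 and 0.615. With the numbers of NT and Thoc2 siRNA crossed, 0 genes were called. Slide as a random block gave Selenbp1 adjusted p = 0.146, 0.0683 and 0.482.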
